A study of Mus musculus with 60 samples.

Results

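Kdm5c, Kdm6a, Ddx3x, Eif2s3x, Uba1, Usp9x and Zfx are X-linked genes of the mouse that are known to escape X inactivation or to keep a partner gene on the Y. They were taken by name, with earlier results of these data known, and make up 7 of 14383 genes listed in the series and 7 of 490 listed X genes. All were listed in each of 60 libraries except Zfx, which was missing in 1 and listed in 59. Their Y partners Kdm5d, Uty, Ddx3y, Eif2s3y, Uba1y, Usp9y, Zfy1 and Zfy2 were listed in none, and the libraries are labelled as female.

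X inactivation silences most genes of 1 X chromosome in female cells. It starts when Xist RNA coats the chromosome from which it is made. Some genes stay expressed from the coated X, and several of these have a Y partner of similar function, so that male and female cells carry the same number of working copies. Among the genes described here, Kdm5c and Kdm6a encode histone demethylases for H3K4 and H3K27, Ddx3x an RNA helicase, Eif2s3x a subunit of a translation initiation factor, Uba1 a ubiquitin-activating enzyme, Usp9x a deubiquitinase and Zfx a zinc finger transcription factor.

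Every clone came from female mouse embryonic stem cells (ESCs) of a 129/Sv by Cast/Ei cross, so that reads over polymorphic bases tell the alleles apart, and carried an Xist transgene that doxycycline switches on. The study asked how Xist RNA silences genes from different chromosomal sites. ESC clones were untreated or given doxycycline for 5 days, and neurons were taken at day 14. Tg-E clones (87 and 68) carry the transgene at the Xist locus of the Cast X, and Tg-X clones (85, 86, 109 and 190) elsewhere on the Cast X. In Tg-X;8 (clones 203b, 339 and 267) it lies on the product of an X;8 translocation, whose X part is of 129 origin, and in Tg-12 (clones 228, 273, 38 and 20) on chromosome 12, so that no X carries it there. Tg-X and Tg-X;8 clones share a parental line in which the distal end of the 129 X is lost through this translocation. Per the study, this line also has an extra copy of the distal part of chromosome 8. The parental line of Tg-12 is trisomic for chromosome 12, and that of Tg-E is described as wild type. Clone 267 also carries a Tsix-Stop allele on the 129 X. The study lists 38 as a line of a clone with another number and does not explain the label 20, so these may not be separate clones. Each clone had 2 libraries per treatment, but clone 203b had 1 treated library, clone 68 had 1 treated library and no untreated one, and clone 20 had neurons only. Each is the descendant of 1 cell, and Tg-E had 1 clone with both treatments. Clone 160, whose labelled transgene chromosome differs from that in the study's list, was kept out of all groups, and 8 libraries of clone 292 could not be assigned to a cell type, which left 48 libraries of 13 clones as labelled.

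Assigned ESC libraries held 731374 to 5830149 allele-specific reads, and neuron libraries held 7068710 to 10698000. The Cast/all ratio is the share of Cast reads among the allele-specific reads of a gene. A total level is given in CPM, the reads counted on the gene scaled to the sum over all listed genes of the library. Xist was listed in all treated ESC libraries, with 1286 to 2001 CPM for Tg-E, 509 to 2125 CPM for Tg-X, 508 to 1870 CPM for Tg-X;8 and 182 to 638 CPM for Tg-12, and reached at most 240 CPM in untreated ones, in Tg-X;8. The median Cast/all ratio of X genes lay between 0.50 and 0.523 in untreated Tg-X libraries and between 0.348 and 0.447 in treated ones. The study calls the replicates of a clone biological and independent, and does not say whether they were separate cultures. Libraries also fell into those with more and those with fewer total reads per allele-specific read, split at 3.3. All 8 untreated Tg-X libraries had fewer, whereas 4 of 8 treated ones had more, so this property of the libraries moves with treatment and is given below where a result depends on it.

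The bases upstream of the start are printed for Uba1, Eif2s3x and Kdm5c, because Uba1 and Eif2s3x kept the transgene allele more than most X genes in Tg-X and Kdm5c is the member with a missing copy. They come from RefSeq on GRCm38.p6, which matched 9 windows of 6 of the 7 genes, with none for Usp9x. Of the windows not shown, a shorter one of Uba1 falls within that printed here and the rest lie inside their gene. Each line gives the strand of the gene, 5′ to 3′, and capitals mark CG dinucleotides.
Uba1: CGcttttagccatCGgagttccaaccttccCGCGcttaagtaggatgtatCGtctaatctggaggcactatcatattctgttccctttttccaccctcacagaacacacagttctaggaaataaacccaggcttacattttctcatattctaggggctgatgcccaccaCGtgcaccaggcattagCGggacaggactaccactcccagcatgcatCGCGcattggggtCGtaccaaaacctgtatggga
Eif2s3x: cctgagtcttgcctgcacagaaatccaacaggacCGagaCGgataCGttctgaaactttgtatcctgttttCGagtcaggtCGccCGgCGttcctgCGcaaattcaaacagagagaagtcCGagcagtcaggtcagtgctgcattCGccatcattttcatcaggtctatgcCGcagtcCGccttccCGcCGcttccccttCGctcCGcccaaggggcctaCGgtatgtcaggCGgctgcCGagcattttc
Kdm5c: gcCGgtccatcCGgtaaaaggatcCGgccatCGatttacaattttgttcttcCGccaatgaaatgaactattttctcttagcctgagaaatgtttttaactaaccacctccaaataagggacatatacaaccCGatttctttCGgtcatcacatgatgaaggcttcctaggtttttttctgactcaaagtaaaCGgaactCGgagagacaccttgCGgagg
The Uba1 window is chrX:20658052-20658301 on the plus strand with 10 CG, the Eif2s3x window chrX:94212652-94212901 on the minus strand with 19, and the Kdm5c window of 221 bases chrX:152232977-152233197 on the plus strand with 10. The median of the same 250 bases before the start over 32851 mouse promoters was 6. A YY1 motif (AANATGGCG, both strands) was found in 0 of the 9 windows, against 1.12% of all promoters. At that share 0 is the likely count in 9 windows of any genes, so nothing is concluded from it.

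On GRCm38.p6 the genes lie in 4 places on the X. Usp9x (chrX:13070982-13173328, plus strand) and Ddx3x (chrX:13280496-13293988, plus strand) are neighbours, Kdm6a (chrX:18160862-18279936, plus strand) and Uba1 (chrX:20658302-20683179, plus strand) follow, and Zfx (chrX:94074631-94150645, minus strand) and Eif2s3x (chrX:94188709-94212651, minus strand) form a pair near the middle. Kdm5c (chrX:152233198-152279102, plus strand) lies in the distal X. The values cover the exonic polymorphisms of each gene. The only annotated overlap is that of Zfx with the lncRNA Gm46691 on the same strand, which is not listed. Ddx3x has a near-identical autosomal copy, D1Pas1, listed in 59 of 60 libraries at 13.8 to 148 CPM, and how reads were split between these 2 genes is uncertain.

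In Tg-E, where Xist was induced from its own locus, the share of the transgene allele was lower with doxycycline for 6 of the 7 genes, and Usp9x passed the test. Usp9x had a Cast/all ratio of 0.455 (95% Wilson interval 0.436 to 0.474) and 0.446 (0.406 to 0.487) in the untreated libraries of clone 87, and of 0.353 (0.328 to 0.378) and 0.364 (0.332 to 0.398) in the treated ones. Both treated libraries lay below both untreated ones, and the log2 ratio of Cast to 129 fell by 0.56 ± 0.12 (SE, adjusted p = 0.0262, quasi-likelihood test of edgeR, Benjamini-Hochberg over 7318 genes). Of all genes 1.04% passed this test, 0.943% towards lower ratios, and of 229 X genes 30.1%. The intervals cover counting error only. The call of Usp9x was lost when untreated replicate 1, untreated replicate 2 or treated replicate 1 was left out (-0.53, -0.58 and -0.52, adjusted p = 0.301, 0.131 and 0.0734).

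Kdm5c, the H3K4 demethylase, could be read on both alleles in this category. Its ratio was 0.492 (0.454 to 0.531) and 0.546 (0.476 to 0.614) without doxycycline and 0.409 (0.361 to 0.458) and 0.352 (0.299 to 0.408) with it. The treated libraries lay below the untreated ones, but the log2 difference of -0.75 ± 0.19 did not pass (adjusted p = 0.101), though it did without treated replicate 1 (-0.94, adjusted p = 0.0353). When the treated library of clone 68, with a ratio of 0.383, was added, the difference was -0.74 ± 0.16 (adjusted p = 0.0106) and Usp9x and Kdm5c both passed.

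Ddx3x, Uba1 and Eif2s3x had log2 differences of -0.37 ± 0.14, -0.46 ± 0.12 and -0.47 ± 0.14 in clone 87, none past the threshold (adjusted p = 0.572, 0.114 and 0.229). Uba1 passed without treated replicate 2 (-0.55, adjusted p = 0.0348). Kdm6a, the H3K27 demethylase, stood at 0.535 and 0.529 without and 0.574 and 0.523 with doxycycline, a log2 difference of 0.11 ± 0.29. Zfx went from 0.452 and 0.696 to 0.514 and 0.519 (log2 difference -0.14 ± 0.40), with between 69 and 157 reads per library. Kdm6a and Zfx had the fewest allele-specific reads of the members. With SEs of 0.29 and 0.40, a change of the size seen in Usp9x could have been missed in them, and the part of depth in this was not tested.

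Set against the other X genes of clone 87, all 7 lost less of the transgene allele than the median X gene, whose share fell by 0.158. The share of X genes with a smaller fall was 3.95% for Kdm6a, 15.4% for Zfx, 16.7% for Ddx3x, 19.3% for Uba1, 21.5% for Eif2s3x, 24.1% for Usp9x and 41.2% for Kdm5c. Rlim and Pgk1, X genes that the study assayed singly, fell by 0.394 and 0.226 in the same libraries. With 2 against 2 libraries no exact permutation test of this order can pass, and these values have no test.

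In Tg-X clones, whose transgene lies elsewhere on the same Cast X, 3 of the 6 genes that could be read on both alleles shifted away from Cast. Of all 5770 genes tested 3.43% passed, 2.37% towards lower ratios. Among 156 X genes it was 50.6%, close to the share of the 6 genes that shifted. These X genes include distal ones without a 129 copy, which cannot shift, and 0 of 17 distal genes passed. Usp9x ranged from 0.432 to 0.486 in untreated libraries (median 0.458, n = 8) and from 0.343 to 0.430 in treated ones (median 0.394, n = 8). The groups did not overlap, and its log2 ratio of Cast to 129 fell by 0.39 ± 0.07 (adjusted p = 0.000223).

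Ddx3x, the RNA helicase next to Usp9x, ranged from 0.478 to 0.530 (median 0.521) without and from 0.398 to 0.503 (median 0.435) with doxycycline. These ranges overlapped through 1 treated library of clone 86, and the log2 ratio fell by 0.42 ± 0.09 (adjusted p = 0.0019). Uba1, the ubiquitin-activating enzyme, ranged from 0.433 to 0.502 (median 0.483) and from 0.380 to 0.479 (median 0.435), and fell by 0.27 ± 0.07 (adjusted p = 0.00979). Its ranges overlapped, and Uba1 did not pass with DESeq2 or when the proportion of total to allele-specific reads was taken into account.

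Eif2s3x, the translation factor subunit, ranged from 0.410 to 0.538 (median 0.459) in untreated and from 0.354 to 0.493 (median 0.457) in treated Tg-X libraries. The groups overlapped almost fully, with a log2 difference of -0.07 ± 0.10 (adjusted p = 0.874). Kdm6a ranged from 0.392 to 0.560 (median 0.503) and from 0.440 to 0.620 (median 0.497), with a log2 difference of 0.09 ± 0.17. Zfx, with 21 to 158 reads per library, ranged from 0.403 to 0.673 (median 0.489) and from 0.327 to 0.562 (median 0.382), and its log2 difference of -0.62 ± 0.23 did not pass (adjusted p = 0.157). Its point estimate was thus close to the X median of -0.63.

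**Figure D1:**
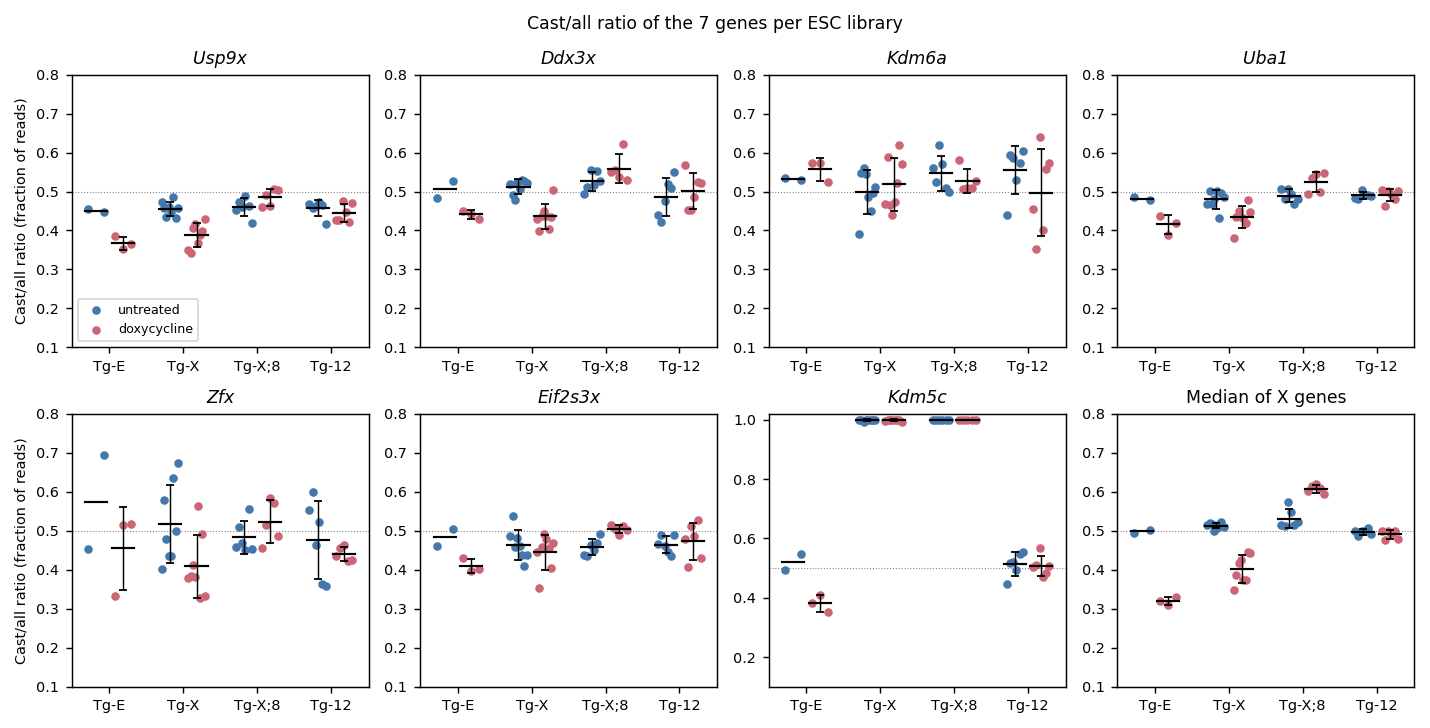
Cast/all ratio (fraction of allele-specific reads) of the 7 genes and of the median X gene in each ESC library by category, untreated and with doxycycline (clone 68 included), with the mean (line) and SD (bar, where a group has 3 or more libraries). The Kdm5c panel has a wider axis, since its ratio is close to 1.00 in Tg-X and Tg-X;8. In Tg-E and Tg-X the treated points of Usp9x lie below the untreated ones, while those of Kdm6a overlap.

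To ask whether these genes kept the transgene allele more than the chromosome as a whole, the ratio of each gene was taken relative to the median ratio of the other X genes in the same library, and treatment labels were permuted within clones. In Tg-X, Usp9x, Kdm6a, Uba1 and Eif2s3x lost less of the Cast allele than this median, 4 of 6 readable genes. Of 156 X genes tested 27.6% lost less in the same way, and 19.3% of those with both alleles. The difference from the median was 0.0440 for Usp9x, 0.133 for Kdm6a, 0.0684 for Uba1 and 0.0931 for Eif2s3x (exact two-sided permutation tests, adjusted p = 0.0117, 0.0205, 0.00777 and 0.0205 over all X genes). Ddx3x had 0.0359 (adjusted p = 0.0757) and Zfx 0.00265 (adjusted p = 0.965). The smallest p that 1296 relabellings allow is 0.00154, and Kdm5c is not counted, because its ratio cannot move without a 129 copy. In the 8 untreated and 4 treated libraries with fewer total reads per allele-specific read, Usp9x, Kdm6a, Uba1 and Eif2s3x had 0.0366, 0.151, 0.0701 and 0.0685, but none of 157 X genes passed there, because the smallest possible p of 0.0123 came to 0.0524 after adjustment. Eif2s3x missed the threshold without untreated replicate 1 of clone 109 (0.0866, adjusted p = 0.0513), and Ddx3x passed without untreated replicate 2 of clone 190 or treated replicate 1 of clone 86 (adjusted p = 0.0333 and 0.0186). Ddx3x and Zfx did not pass here, which does not show that they moved with the chromosome. The Ddx3x value was close to that of Usp9x, and that of Zfx lay between -0.0268 and 0.0322 when 1 library was left out. Usp9x and Uba1, whose allelic shifts passed, lost part of the Cast allele but less than the median.

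The fall in the share of Cast differed between the 4 Tg-X clones. Uba1 fell by 0.0778 in clone 109 and by 0.0276 to 0.0414 in the other 3, where the median X gene fell by 0.131 in clone 109 and by 0.0410 to 0.123 in the others. Uba1, Usp9x and Eif2s3x were below the X median of the clone in 4 of 4 clones, and Ddx3x, Kdm6a and Zfx in 3 of 4. Eif2s3x fell by 0.112 in clone 109, close to the X median of that clone, and had -0.0176 to -0.00551 in the other 3. Kdm6a had -0.0923, -0.0589 and -0.0281 in clones 86, 109 and 85 and 0.0995 in clone 190, where it lost more than the X median of 0.0675.

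In Tg-X;8 clones the transgene lies on the 129 X, and loss of that allele raises the Cast/all ratio. The median X gene had a log2 difference of 0.29 and none of the 6 genes with both alleles passed, with 0.932% of 6118 genes and 15.6% of 186 X genes passing. Of the distal X genes, most of which have no 129 copy, 0 of 30 passed. Eif2s3x ranged from 0.435 to 0.492 (median 0.458, n = 6) without and from 0.490 to 0.514 (median 0.503, n = 5) with doxycycline, a log2 difference of 0.24 ± 0.10 (adjusted p = 0.533). The groups overlapped by a single library each. Uba1 had 0.20 ± 0.08, Ddx3x 0.15 ± 0.11, Usp9x 0.13 ± 0.08, Zfx 0.20 ± 0.26 and Kdm6a -0.11 ± 0.21. In clone 267, the clone with the Tsix-Stop allele, the median X ratio was already 0.574 and 0.548 untreated, against 0.511 to 0.524 in clones 203b and 339. The median X gene lost 0.030 of the 129 allele in clone 267, and 0.059 and 0.057 in clones 203b and 339. Without clone 267, Kdm6a had 0.13 and Zfx -0.10. The SE of Kdm6a and Zfx was thus close to the size of the shift of the median X gene.

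Relative to the X median of the same library, Kdm6a, Uba1 and Eif2s3x lost less of the 129 allele in Tg-X;8, 3 of 6 readable genes. Their Cast/all ratio, which rises with this loss, had a difference from the median of -0.0896, -0.0477 and -0.0296 (exact two-sided permutation tests, adjusted p = 0.0319 each, from p = 0.00926, the smallest that 108 relabellings allow). Of 186 X genes 22% lost less in this way, but among those with both alleles only 7.64%, because distal genes without a 129 copy cannot shift. Usp9x and Ddx3x had -0.0561 and -0.0456 (adjusted p = 0.0718 each). On a log odds scale Kdm6a, Uba1 and Eif2s3x had -0.512, -0.269 and -0.165, again with the smallest p, but an adjusted p of 0.0689 each. With X genes of a single allele left out of the median and of the test they had -0.0855, -0.0435 and -0.0254 (adjusted p = 0.100, 0.138 and 0.112). The calls were also lost with any 1 library left out, where fewer relabellings remain. In none of these settings did any X gene pass.

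**Figure D2:**
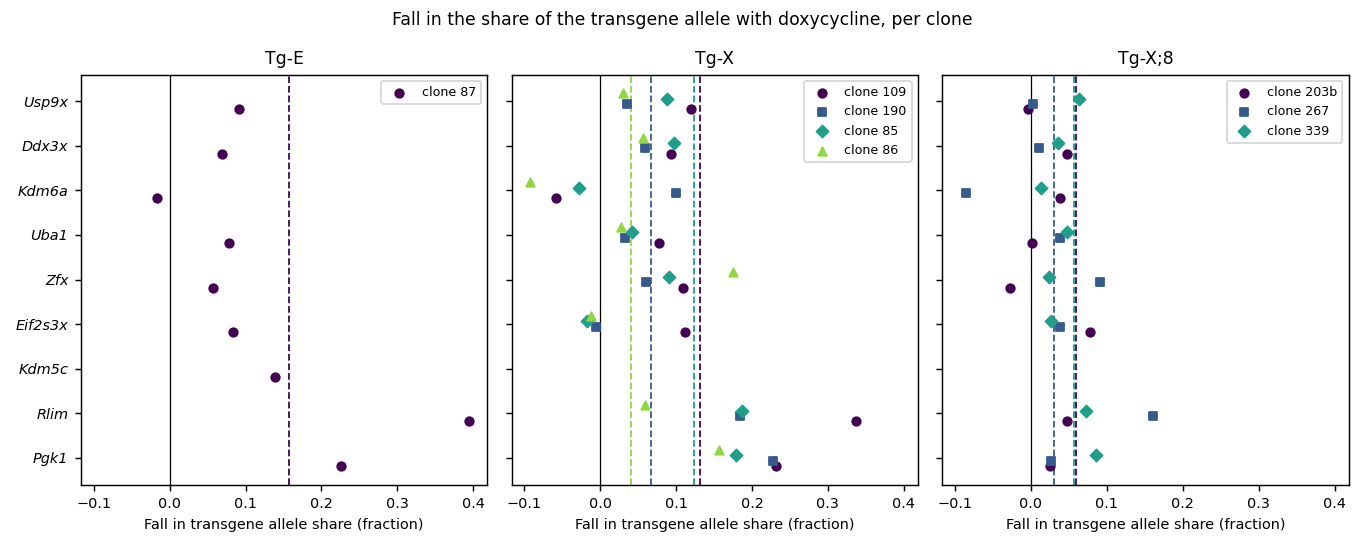
Fall in the share of the transgene allele with doxycycline (fraction, mean of untreated minus mean of treated libraries) for the readable genes and for Rlim and Pgk1, by clone in Tg-E, Tg-X and Tg-X;8. Symbols are clones, and dashed lines give the median fall over X genes of the clone in the same colour. In clone 87 the 7 genes lie left of the dashed line, at falls of up to 0.139 where Rlim reaches 0.394.

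When the test of the difference itself was made, none of the 6 genes with both alleles differed in shift between Tg-X and Tg-X;8, where 2.31% of 5546 genes did, or between Tg-E and Tg-X, where 0 of 5718 genes passed with edgeR and 320 had an unadjusted p under 0.05. In Tg-12 clones, in which no X carries the transgene, 0 of 6 tested genes shifted (2 of 5167 genes, 0.0387%, passed and 293 had an unadjusted p under 0.05), with log2 differences from -0.34 to 0.09. Zfx was not tested there, since it is not listed in the treated replicate 1 of clone 273.

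Kdm5c was the only member whose copy number differed between clones. Over the 16 Tg-X libraries 3 of 1746 Kdm5c reads were of 129 origin, 0.172% (95% Wilson interval 0.0585% to 0.504%), and over the 11 Tg-X;8 libraries 0 of 1400, which allows a share of up to 0.214% by a floor of 3 counts and of up to 0.274% by the Wilson interval. In Tg-12 ESCs 49.1% of 2978 reads were of 129 origin. Thus Kdm5c has only its Cast copy in Tg-X and Tg-X;8, and its ratio there cannot report silencing.

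With 1 copy in place of 2, the total level of Kdm5c was lower by about as much as the copy number. Untreated clones with a single copy had 139, 154, 160, 162, 165, 172 and 186 CPM, and those with both had 286, 305, 330 and 354 CPM. The groups did not overlap, at 162 ± 14.7 (SD, n = 7 clones) and 319 ± 29.7 (SD, n = 4 clones). The log2 difference was -1.01 ± 0.10 (adjusted p = 0.000203, edgeR's quasi-likelihood test on untreated reads summed per clone), a level 0.495 times that with both copies. Of 5007 genes 0.699% passed, 0.579% with a lower level, and 12.7% of 166 X genes. Of the 21 X genes that passed, 20 lie in the distal X, here from Apex2, its first listed gene, at 150.58 Mb on, among 26 tested there. All clones with a single copy in this comparison came from the translocated line, so copy number cannot be told apart from line and karyotype. Of the clones with both copies, 228, 273 and 38 belong to the line trisomic for chromosome 12, and 87 does not. The p reflects the spread between clones and not that between lines.

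The other 6 genes, with 2 copies in all clones, did not pass in this comparison, with log2 differences between -0.11 (Eif2s3x) and 0.19 (Usp9x). Usp9x had 1172 ± 204 CPM in clones of the translocated line and 965 ± 257 in the others, and Uba1 1016 ± 43.7 and 925 ± 64.4. Kdm6a, Zfx and Eif2s3x had 119 ± 16.3, 79.2 ± 12.6 and 922 ± 56.7 CPM in the former and 104 ± 19.2, 76.0 ± 11.6 and 935 ± 171 CPM in the latter (SD, n = 7 and 4 clones). For Ddx3x it was 1312 ± 281 and 1106 ± 320 CPM.

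**Figure D3:**
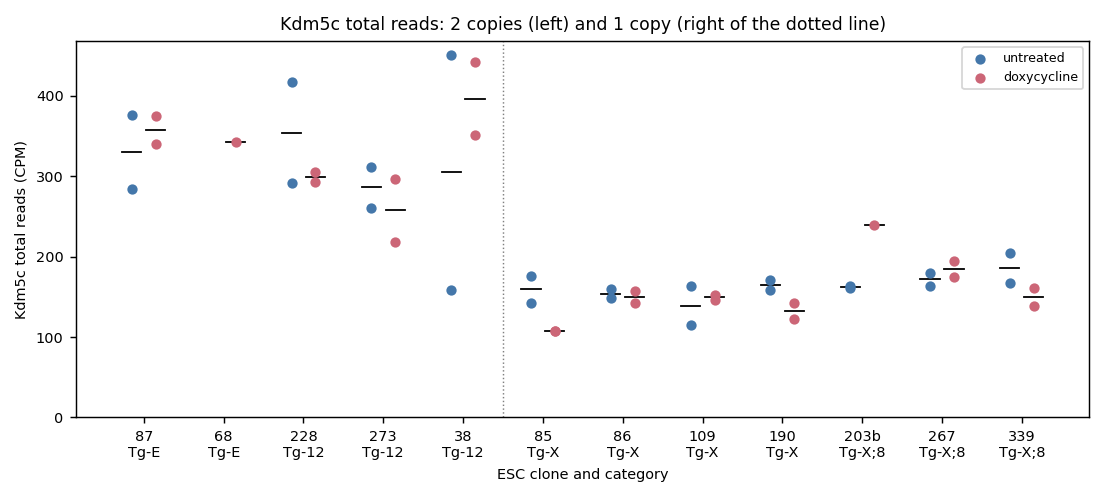
Total level of Kdm5c (CPM) in each ESC library by clone, untreated and with doxycycline, with the mean as a line. Clones left of the dotted line have both copies and those right of it only the Cast copy. Untreated clone means lie between 286 and 354 CPM on the left and between 139 and 186 CPM on the right, while single libraries of clone 38 spread from 158 to 452 CPM.

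In Tg-X the single Kdm5c copy lies on the X that makes Xist RNA, so that silencing of this copy would lower its total level. Total levels are not specific to silencing, since 41% of 5742 genes passed in the same fit, in 1 direction or the other. Kdm5c ranged from 115 to 176 CPM (median 159, n = 8) in untreated and from 107 to 157 CPM (median 143, n = 8) in treated libraries. The groups overlapped, and the log2 fold change was -0.22 ± 0.10 (adjusted p = 0.0758). A term for the proportion of total to allele-specific reads gave -0.20 ± 0.12 (adjusted p = 0.198). When 1 library was left out the value lay between -0.28 and -0.16, and without untreated replicate 2 of clone 109, whose 115 CPM were the lowest of the untreated libraries, it passed (-0.28, adjusted p = 0.0148).

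Kdm5c was compared with 15 other distal X genes that also have only the Cast copy (under 5% of 129 reads in untreated libraries of the translocated line and in the same distal stretch) and are listed in every Tg-X library. In the same fit 13 of these 15 fell, with a median log2 fold change of -0.91, from -1.85 for Prdx4, a peroxiredoxin, to -0.15 for A830080D01Rik, against 20% of all 5742 genes that fell. The fold change of 14 of the 15 was more negative than that of Kdm5c. Hsd17b10, a neighbour of Kdm5c and a mitochondrial dehydrogenase, had -1.46 ± 0.14, whereas Huwe1, a ubiquitin ligase in the same stretch, had -0.28 ± 0.14.

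The difference itself was tested after these values had been seen. In each Tg-X library the median log2 CPM of the other single-copy genes was subtracted from the log2 CPM of Kdm5c. This gave 0.41 to 1.29 (median 0.97, n = 8) in untreated and 1.30 to 1.77 (median 1.58, n = 8) in treated libraries. All treated libraries lay above all untreated ones, and relative to these genes Kdm5c rose by 0.62 (exact two-sided permutation within clones, p = 0.00154, the smallest possible). Adjusted over 16 genes this was 0.00412, and 8 of the 16 passed, 3 of them with a smaller fall than the rest (Kdm5c, Huwe1 and A830080D01Rik). With fewer total reads per allele-specific read, which left 8 untreated and 4 treated libraries, the difference was 0.60 (exact permutation p = 0.0123, the smallest possible). Omission of 1 library gave 0.51, without untreated replicate 2 of clone 109, to 0.73, without untreated replicate 1 of the same clone. In Tg-X;8, where the Kdm5c copy is on the X without the transgene, Kdm5c had 0.05 ± 0.12 (adjusted p = 0.831) and 28 such genes a median of -0.08, of which 1 fell.

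**Figure D4:**
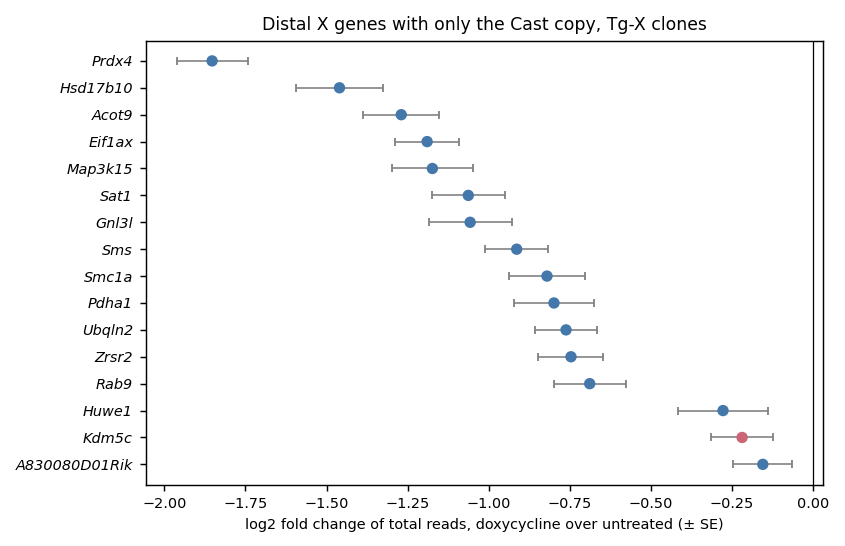
Log2 fold change of total reads with doxycycline over untreated (± SE) in Tg-X clones for the 16 distal X genes that have only the Cast copy. Kdm5c, in red, stands at -0.22, between Huwe1 and A830080D01Rik, and the median of the other 15 is -0.91.

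Total levels of the genes with 2 copies gave a less stable picture. In Tg-X, Usp9x ranged from 719 to 1404 CPM (median 1075) untreated and from 963 to 1566 CPM (median 1365) treated, and rose by 0.30 ± 0.11 on the log2 scale (adjusted p = 0.0316). This call was lost in 7 of 16 omissions of 1 library (adjusted p up to 0.0795), those of untreated replicates 1 and 2 of clone 109, replicate 2 of clone 85 and replicate 2 of clone 86 and of treated replicate 1 of clones 109, 190 and 85. Kdm6a ranged from 83.6 to 135 CPM (median 109) and from 95.6 to 172 CPM (median 142), and rose by 0.34 ± 0.11 (adjusted p = 0.0167). For both genes the groups overlapped, and 41% of 5742 genes passed in 1 direction or the other, 21% upwards, and 62.2% of X genes.

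With a term for the proportion of total to allele-specific reads, neither gene passed (0.12 ± 0.11 and 0.16 ± 0.11, adjusted p = 0.415 and 0.265). Ddx3x and Eif2s3x, which had -0.13 ± 0.13 and -0.20 ± 0.10 in the fit of all libraries, then fell by 0.43 ± 0.12 and 0.41 ± 0.10 (adjusted p = 0.0076 and 0.0036), where the median X gene had -0.37 with this term and -0.30 without it. The libraries with the lower proportion alone gave the same calls. The part of this property of the libraries in either set of calls was not tested. Uba1 and Zfx had -0.05 ± 0.08 and 0.05 ± 0.12, and neither passed in any of these fits. No member passed for total level in Tg-E (0.0137% of 7282 genes passed, members from -0.16 to 0.28), in Tg-X;8 (6.59% of 6088, members from -0.16 to 0.05) or in Tg-12 (0.117% of 5144, members from -0.13 to 0.08).

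**Figure D5:**
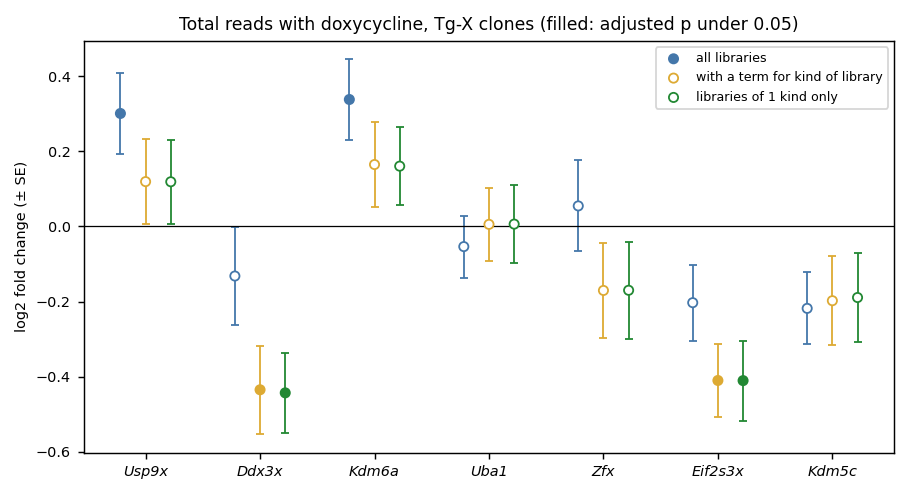
Log2 fold change of total reads with doxycycline over untreated (± SE) in Tg-X clones for the 7 genes under 3 fits. Filled circles have an adjusted p under 0.05. Usp9x and Kdm6a pass with all libraries, and Ddx3x and Eif2s3x pass in the other fits.

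Neurons were compared with ESCs in clone 38, with 1 untreated and 1 treated neuron library and 2 of each for ESCs. All 6 ESC markers looked for were still listed in neurons, at a sum of 1072 and 1649 CPM against 2873 to 6668 in ESCs. The 6 neuron markers summed to 66.7 and 673 CPM, with Stmn2 not listed, against 0 to 104 CPM in ESCs, and the 3 fibroblast markers to 89.2 and 338 CPM against 0 to 8.15. The 5 glia markers reached 278 CPM in 1 of these neuron libraries and 32.1 in the other, against 24.3 to 104 in ESCs. The sum of 66.7 CPM, that of the treated library, lies within the range of ESCs, so that the neuron label of this library is not borne out by these markers beyond Dcx, listed there and in no ESC library. In clone 20 the neuron markers summed to 93.7 and 130 CPM, the former also within the range of ESCs, and the glia markers to 31.0 and 36.7 CPM. The libraries labelled as neurons thus also held reads of ESC and fibroblast markers, while the glia sum lay above the range of ESCs in only 1 of them. Whether other cells gave these reads, and what part they have in the results, was not tested. Fewer cells of a type and less RNA per cell cannot be told apart in such bulk samples.

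Zfx had 71.7, 45.8, 75.0 and 56.3 CPM in ESC libraries of clone 38 and 93.3 and 106 CPM in its neurons. Both neuron libraries lay above all ESC libraries, and Zfx was higher by 0.79 ± 0.20 on the log2 scale (adjusted p = 0.0412), where 18.7% of 6765 genes passed, 9.93% with a higher level. The call was lost without either neuron library or either treated ESC library (adjusted p between 0.0895 and 0.308). Ddx3x had 1084, 551, 1048 and 765 CPM in ESCs and 1352 and 1472 CPM in neurons (log2 difference 0.83 ± 0.27, adjusted p = 0.0786). Kdm6a had 121, 38.3, 114 and 82.5 CPM and 148 and 158 CPM (0.93 ± 0.37, adjusted p = 0.123). For these genes, too, neuron values lay above ESC values, and the lowest ESC value was that of untreated replicate 2 each time.

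Without untreated replicate 1 or 2 of the ESCs, Ddx3x (1.01 and 0.70) and Kdm6a (1.28 and 0.68) passed. With the 2 neuron libraries of clone 20 added, Ddx3x, Kdm6a and Zfx all passed, and with a term for the proportion of total to allele-specific reads none did. Usp9x, Uba1, Eif2s3x and Kdm5c had log2 differences between -0.16 and 0.27 and did not pass. The Cast/all ratio of Kdm5c in neurons was 0.481 to 0.522 in 4 libraries, and 50.4% of 6651 reads were of 129 origin. The median X gene had a similar ratio, 0.495 to 0.534 in untreated and 0.511 to 0.518 in treated neuron libraries. Xist stood at 597 and 1084 CPM in untreated and at 1552 and 2331 CPM in treated ones. A balanced bulk ratio does not tell cells that express both alleles from a mix of cells with either X silenced.

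Over the 48 libraries used, the X genes whose ratio came closest to that of each member, by mean absolute difference, were Ogt and Htatsf1 for Usp9x (0.0337 and 0.0346), Rps4x and Ndufb11 for Ddx3x (0.0296 each) and for Uba1 (0.0229 and 0.0264), and Uba1 and Ogt for Eif2s3x (0.0337 and 0.0339). For Kdm6a they were Idh3g and Rbm3 (0.0578 and 0.0608), and for Zfx, over 47 libraries, Ogt and Renbp (0.0590 and 0.0617). For Kdm5c they were Huwe1 and Eif1ax (0.0127 and 0.0139), which have the same missing copy. The median difference from all 208 X genes compared was between 0.0850 for Uba1 and 0.113 for Kdm6a, and 0.312 for Kdm5c.

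Genes next to the members did not all behave alike. Fundc1, the only neighbour of Kdm6a within 1 Mb, lost 0.110 of the transgene allele in Tg-E and 0.126 in Tg-X, where Kdm6a had -0.0163 and -0.0199. Around Usp9x the neighbours ranged in Tg-E from -0.0573 (Gm4984) to 0.326 (Cask), with Usp9x at 0.0920. Next to Eif2s3x, Pdk3 lost 0.174 in Tg-X, and all 5 listed neighbours lost more than Eif2s3x with 0.0192. Of 8 listed neighbours of Kdm5c in Tg-E, 6 lost more than Kdm5c. Other members had neighbours that kept the transgene allele as much or more. In Tg-X, 0 of 4 listed neighbours of Ddx3x and 1 of 4 of Usp9x lost more than the member, with 1810030O07Rik at -0.0167. For Zfx it was 3 of 5 and for Uba1 9 of 10, with Araf at 0.00645. These values have no test.

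Of 11 other genes reported to escape in mouse, 4 were tested in Tg-E and 3 in Tg-X, and Utp14a fell in both, by 0.64 ± 0.12 and 0.45 ± 0.07 on the log2 scale (adjusted p = 0.0148 and 5e-05). The median of those tested was -0.77 in Tg-E and -0.37 in Tg-X, against -0.98 and -0.63 for all X genes and -0.46 and -0.39 for the 7 members, including Kdm5c without a 129 copy in Tg-X. Relative to the X median, 3 of 3 other escape genes lost less in Tg-X and 1 of 3 in Tg-X;8. Among X genes with both alleles this share was 19.3% and 7.64%. Of 10 other X genes with a Y copy in mouse or human, Ap1s2, Eif1ax and Rps4x fell in Tg-E, 3 of 6 tested, and Rps4x, a ribosomal protein gene, by 0.34 ± 0.04 in Tg-X (adjusted p = 1.37e-05), 1 of 2 tested with both alleles (Eif1ax has no 129 copy there). In Tg-X;8, 0 of 3 other escape genes passed, while Rbmx and Rps4x rose, by 1.30 ± 0.31 and 0.13 ± 0.03. They are the only 2 of 5 tested there that have both alleles. Of all X genes 30.1% passed in Tg-E, 50.6% in Tg-X and 15.6% in Tg-X;8, with genes without a 129 copy counted in the last 2 shares. Of the Y partners and autosomal copies only D1Pas1 was tested, and its allelic ratio passed in no category, while its total level rose by 0.60 ± 0.08 in Tg-X, where 21% of genes rose, and by 0.30 ± 0.08 in Tg-X;8 (adjusted p = 0.0458), and was lower in neurons (log2 difference -1.93 ± 0.22, adjusted p = 0.00391).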

How the data were processed

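Per the labels, total RNA was sequenced with an Illumina kit. The authors aligned reads to 129/Sv and Cast/Ei genomes (mm10) and counted alleles at exonic polymorphisms with at least 5 reads, or 8 where a gene has a single one. The submitters' processing notes name TopHat2 2.0.6, SAMtools and HTSeq 0.6.1. For each library the authors deposited raw counts of Cast reads, 129 reads and all reads per gene, not normalized, and the Cast fraction of allele-specific reads. Genes with under 8 allele-specific reads are not listed.

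From these counts, CPM were computed over all listed genes of a library. The test of allelic shifts was the quasi-likelihood test of edgeR 4.0.16 (R 4.3.3), with 2 columns per library, terms for library and for clone by allele, and the treatment by allele term tested. Total counts were tested with edgeR and TMM with clone as a term, untreated lines on reads summed per clone, and neurons with treatment as a term. p-values were adjusted by the Benjamini-Hochberg method over all genes listed in every library compared. Ratio differences from the X median and single-copy values were tested by exact permutation of treatment within clones, in Python 3.11.15 (scipy 1.17.1, pandas 2.3.3, numpy 2.4.6, statsmodels 0.14.6, matplotlib 3.10.9). The scripts were tested on simulated data.

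The 7 genes are named in every comparison, with Rlim and Pgk1 as silenced references (a further reference gene is not reported here), for each member the 2 X genes of nearest ratio in at least 40 libraries, and genes of the other lists that passed. The members and lists were chosen with earlier results of these data known. The fits with the proportion of total to allele-specific reads, the median over genes with both alleles, clone 160 alone and the permutation test of single-copy genes were chosen after seeing the data. DESeq2 1.42.0, other scalings, filters and scales, a replicate block and omission of each library were alternatives. None of 23 replicate pairs held the same library, with a chi-square per degree of freedom of 2.51 to 39.6. Clone 160 entered alternatives, a fit of its own and the ESC ranges of markers but no group, and the libraries of clone 292 entered none.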

Additional observations from a re-analysis of the deposited data

Results flagged for a closer look

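Of 80 groups of 4 to 10 values of a member's ratio or CPM, 5 had a library far from the others of its group, where chance gives about 1 in 20. In untreated Tg-12 ESCs, Usp9x had a ratio of 0.417 in replicate 2 of clone 38, where the others lay between 0.458 and 0.472, and Zfx had 45.8 CPM in the same library against 71.7 to 86.6 in the others. In treated Tg-X;8 ESCs, Ddx3x had a ratio of 0.622 in replicate 1 of clone 339 against 0.530 to 0.554, and Kdm6a had 0.581 in replicate 2 of clone 203b against 0.507 to 0.527. In untreated Tg-X ESCs, Uba1 had 824 CPM in replicate 2 of clone 109 against 969 to 1096 in the others.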

How the results depend on the processing

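The number of members with an allelic shift in Tg-E was 0 with DESeq2, with a replicate block and with a term for the proportion of total to allele-specific reads, 2 with clone 68 added and 5 with adjustment over X genes alone, which gave 1 in Tg-X;8. The number with a different total level in neurons was 2 with DESeq2, 3 with clone 20 added, and 0 without TMM and with that term. Relative to the X median, 2 genes passed in Tg-X under the replicate block, without Kdm6a and Eif2s3x (adjusted p = 0.0703 each), and 0 in libraries with the lower proportion, where no X gene passed. In Tg-X;8 it was 0 on log odds, under the block, against the autosomal median, with both-allele genes only, with the lower proportion and without clone 267, where no X gene passed either. The replicate block changed no other count of members. The Kdm5c difference of 0.618 is by construction the same under it (exact permutation p = 0.00781, the smallest possible). Replicate numbers were not taken as pairs: the correlation of same-numbered deviations was -0.560 to 0.665 for expression, over 0.1 in 8 of 11 clones but not in all, and -0.0483 to 0.0495 for the ratio. The causes were not tested.

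Omission of single libraries gave 0 to 2 members in Tg-E and 3 in every case in Tg-X for allelic shifts. For totals the counts were 1 to 2 (Tg-X), 0 to 1 (Tg-X;8, Uba1 without the treated library of clone 203b) and 0 to 3 (neurons), and relative to the X median 3 to 5 (Tg-X) and 0 (Tg-X;8). The Kdm5c difference was 0.508 to 0.727.

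Values that changed sign were Kdm6a (0.13) and Zfx (-0.10) in Tg-X;8 without clone 267, and Uba1 and Zfx totals in Tg-X with the term (0.0053 and -0.17) or with the lower proportion (0.0060 and -0.17), where Zfx against the X median was -0.0178, and 0.0170 in Tg-X;8. Against the autosomal median, which leaves the shift of the chromosome in the value, Usp9x, Ddx3x, Uba1, Zfx and Eif2s3x had -0.0688, -0.0765, -0.0455, -0.109 and -0.0198 in Tg-X and 0.0198, 0.0304, 0.0283, 0.0281 and 0.0464 in Tg-X;8. Omission of a library turned the Tg-E shift of Zfx (-1.10 to 0.37) and Kdm6a (-0.0559 to 0.24), that of Kdm6a in Tg-X (-0.0014 to 0.17), the Zfx total in Tg-X (-0.0191 to 0.12) and Zfx against the X median in Tg-X (-0.0268 to 0.0322). Of the genes read on both alleles, Kdm6a and Zfx had the fewest reads, with 10 to 158 Zfx reads per ESC library outside Tg-E. The part of depth in these changes was not tested.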

Other observations

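In the 8 libraries of clone 292, whose cell type could not be assigned, 7 of 3997 Kdm5c reads were of 129 origin, 0.175% (95% Wilson interval 0.0849% to 0.361%). Their Kdm5c level was 129, 165, 167, 175, 203, 212, 216 and 224 CPM. The ratio of Usp9x ranged there from 0.439 to 0.520, and that of Kdm6a from 0.50 to 0.590.

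Clone 160, labelled as carrying the transgene on the X and listed by the study under chromosome 12, had 1 read of 129 origin among 604 Kdm5c reads, 0.166% (95% Wilson interval 0.0292% to 0.932%), and Kdm5c levels of 207 and 228 CPM untreated and 176 and 202 CPM treated. Usp9x had a ratio of 0.481 and 0.461 without and 0.462 and 0.454 with doxycycline, and Uba1 of 0.478 and 0.489 without and 0.492 and 0.497 with it, while the median X gene went from 0.563 in both to 0.545 and 0.550.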
